A study of Homo sapiens with 12 samples.

Results

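The 10 genes described here encode 2 families of enzymes that mature collagen: 5 lysyl oxidases (LOX, LOXL1, LOXL2, LOXL3 and LOXL4) and 5 collagen hydroxylases (P4HA1, P4HA2, PLOD1, PLOD2 and PLOD3). They were taken by gene symbol, and all 20 probe sets that the platform annotation assigns to 1 of these symbols were kept, of 54613 non-control probe sets on the array. The probe set with the highest mean over the 12 arrays stands for the gene and is called the leading probe set, which gives 10 of 19775 named genes. Levels are log2 values, and brightness differs between probes for technical reasons, so levels are compared between arrays and not between genes.

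Ishikawa cells, an established endometrial adenocarcinoma line, were transfected with siRNA for 48 h and then given a peptide for 24 h. The 4 groups of 3 arrays were cells with GPR54 siRNA and 10 µM metastin-10, with GPR54 siRNA and control peptide, with negative control siRNA and 10 µM metastin-10, and with negative control siRNA and control peptide. Every group therefore carried an siRNA and a peptide, including the one titled as non-treated. Metastin-10 is a short active fragment of kisspeptin, the ligand of the G protein-coupled receptor GPR54, whose gene is KISS1R. The comparisons ask what metastin-10 changed and whether the change needed the receptor. The labels call the 3 arrays of a group biological replicates and do not say more about how the cultures were separated.

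The gene targeted by the siRNA goes against the labels. KISS1R read 9.60, 9.42 and 9.28 with GPR54 siRNA and metastin-10, 9.46, 9.45 and 9.36 with GPR54 siRNA and control peptide, 8.43, 8.42 and 8.35 with control siRNA and metastin-10, and 9.39, 9.32 and 9.14 with control siRNA and control peptide. Under control peptide the difference of GPR54 siRNA from control siRNA was 0.14 (95% interval -0.07 to 0.35), so no knockdown of the transcript was seen, and these arrays are called "labelled GPR54 siRNA" below. The lowest KISS1R levels were on the 3 arrays labelled control siRNA and metastin-10, where P4HA1 was also lowest. Whether arrays and labels were exchanged was not tested, and every direction given here goes by the labels. Array medians lay between 5.13 and 5.22, and correlations between arrays between 0.992 and 0.998. The 4 arrays numbered 3 stood apart in their controls, with an actin 3' minus 5' difference of 0.29 to 0.36 against 0.66 to 0.90 on the others, and the arrays numbered 1 and 2 with control siRNA and metastin-10 stood apart on the second principal component. The 7 epithelial markers lay between the 79.2 and 99.9 percentile of level over all non-control probe sets. Their mean was 11.39 to 11.50 with control siRNA and metastin-10 and 11.67 to 11.72 with control siRNA and control peptide, while that of 7 stromal fibroblast markers was 4.39 to 4.56 and 4.22 to 4.38 in the same order of groups. The fibroblast markers lay between the 4.2 and 62.1 percentile of level. All arrays are of 1 cell line, so these markers are given for their level and not as a count of stromal cells. The part of these shifts in the results below was not tested, and in bulk RNA fewer cells of a state and less RNA per cell cannot be told apart.

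Collagen is modified both before and after it leaves the cell. Inside the endoplasmic reticulum, prolyl 4-hydroxylases make the hydroxyproline that keeps the triple helix stable at body temperature, and lysyl hydroxylases make the hydroxylysine that later carries sugars and cross-links; these enzymes use iron, 2-oxoglutarate, oxygen and ascorbate. Outside the cell, lysyl oxidases, which need copper, turn lysine and hydroxylysine side chains of collagen and elastin into aldehydes that then form covalent cross-links. Several of the genes, LOX, P4HA1, P4HA2, PLOD1 and PLOD2 among them, are reported targets of the hypoxia-inducible factor HIF-1, and in tumours these enzymes are known for stiffening the matrix.

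The 250 bases before the RefSeq start (GRCh38.p14) were searched for the core letters to which HIF-1 binds, ACGTG and GCGTG on both strands. The search was made because the members that lay lower with metastin-10 include the reported HIF-1 targets named above. RefSeq promoters matched 9 of the 10 members and LOXL2 had no entry. ACGTG was present upstream of P4HA1, PLOD2 and LOX, GCGTG upstream of PLOD2 and PLOD1, and neither upstream of the other 5, P4HA2, PLOD3, LOXL1, LOXL3 and LOXL4. Of 27305 promoters of the same length, 18.6% held ACGTG, 31.9% held GCGTG and 43.1% held either. Of the 9 members 4 held either, a share close to that of all promoters. P4HA2 and LOXL1, which held neither, also lay lower with metastin-10 under control siRNA, without overlap. The 4 promoters with a match are printed 5′ to 3′ on the gene's strand, with that of PLOD3 beside them as a lysyl hydroxylase gene with none. Capitals mark the matched letters, written CACGT where the match is on the other strand. They stand for P4HA1 at chr10:73096867-73097116 (minus strand), for PLOD2 at chr3:146161185-146161434 (minus strand), for LOX at chr5:122078260-122078509 (minus strand), for PLOD1 at chr1:11934467-11934716 (plus strand) and for PLOD3 at chr7:101217582-101217831 (minus strand).
P4HA1: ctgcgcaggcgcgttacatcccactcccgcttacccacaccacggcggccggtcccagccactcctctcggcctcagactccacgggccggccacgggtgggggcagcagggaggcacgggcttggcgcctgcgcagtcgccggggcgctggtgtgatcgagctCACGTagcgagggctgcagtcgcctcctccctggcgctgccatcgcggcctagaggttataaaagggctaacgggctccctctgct
PLOD2: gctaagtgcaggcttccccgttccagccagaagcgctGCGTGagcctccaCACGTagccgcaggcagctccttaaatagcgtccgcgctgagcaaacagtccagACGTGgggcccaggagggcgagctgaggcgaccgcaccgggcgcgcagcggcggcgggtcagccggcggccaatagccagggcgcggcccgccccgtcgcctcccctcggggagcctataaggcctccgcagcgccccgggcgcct
LOX: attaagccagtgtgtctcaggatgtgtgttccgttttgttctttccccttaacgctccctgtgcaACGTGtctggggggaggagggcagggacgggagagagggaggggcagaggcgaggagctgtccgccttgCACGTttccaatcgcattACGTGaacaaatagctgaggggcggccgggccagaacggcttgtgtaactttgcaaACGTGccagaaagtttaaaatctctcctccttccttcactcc
PLOD1: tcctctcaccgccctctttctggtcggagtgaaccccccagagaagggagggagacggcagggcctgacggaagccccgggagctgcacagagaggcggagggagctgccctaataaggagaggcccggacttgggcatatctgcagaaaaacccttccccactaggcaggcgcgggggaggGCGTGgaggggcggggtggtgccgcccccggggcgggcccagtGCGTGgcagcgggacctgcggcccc
PLOD3: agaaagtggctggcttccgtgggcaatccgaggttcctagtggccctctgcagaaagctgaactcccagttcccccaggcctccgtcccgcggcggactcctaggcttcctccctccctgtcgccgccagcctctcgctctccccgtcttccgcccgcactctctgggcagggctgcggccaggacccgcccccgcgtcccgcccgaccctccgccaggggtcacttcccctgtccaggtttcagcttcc
The single match in P4HA1 lay 86 bases before the start, and those in LOX lay 185, 116, 98 and 42 bases before it. PLOD2 had ACGTG at 200 and 146 bases and GCGTG at 213, and PLOD1 had GCGTG at 68 and 25. No match overlaps another. A match is a description of these letters and not a bound site.

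In cells with control siRNA, metastin-10 went with a lower level of P4HA1, and no lysyl oxidase passed the test. P4HA1, the catalytic alpha subunit of the main prolyl 4-hydroxylase, fell 1.44-fold and was the 1 member of 10 past the threshold of an adjusted p of 0.05 (limma, Benjamini-Hochberg over all 54613 probe sets). Over all genes, 0.607% passed in either direction and 0.531% were lower. That fit had no block for the replicate number. With the number as a block, P4HA1, PLOD1 and PLOD2 passed. The 3 metastin-10 arrays lay below all 3 control peptide arrays for 6 members, P4HA1, P4HA2, PLOD1, PLOD2, LOXL1 and LOXL2, where 10.9% of all genes did so. The median difference of the 10 members was -0.27, against 0.01 over all genes, and of the 5 hydroxylases -0.42 and of the 5 lysyl oxidases -0.20.

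**Figure D1:**
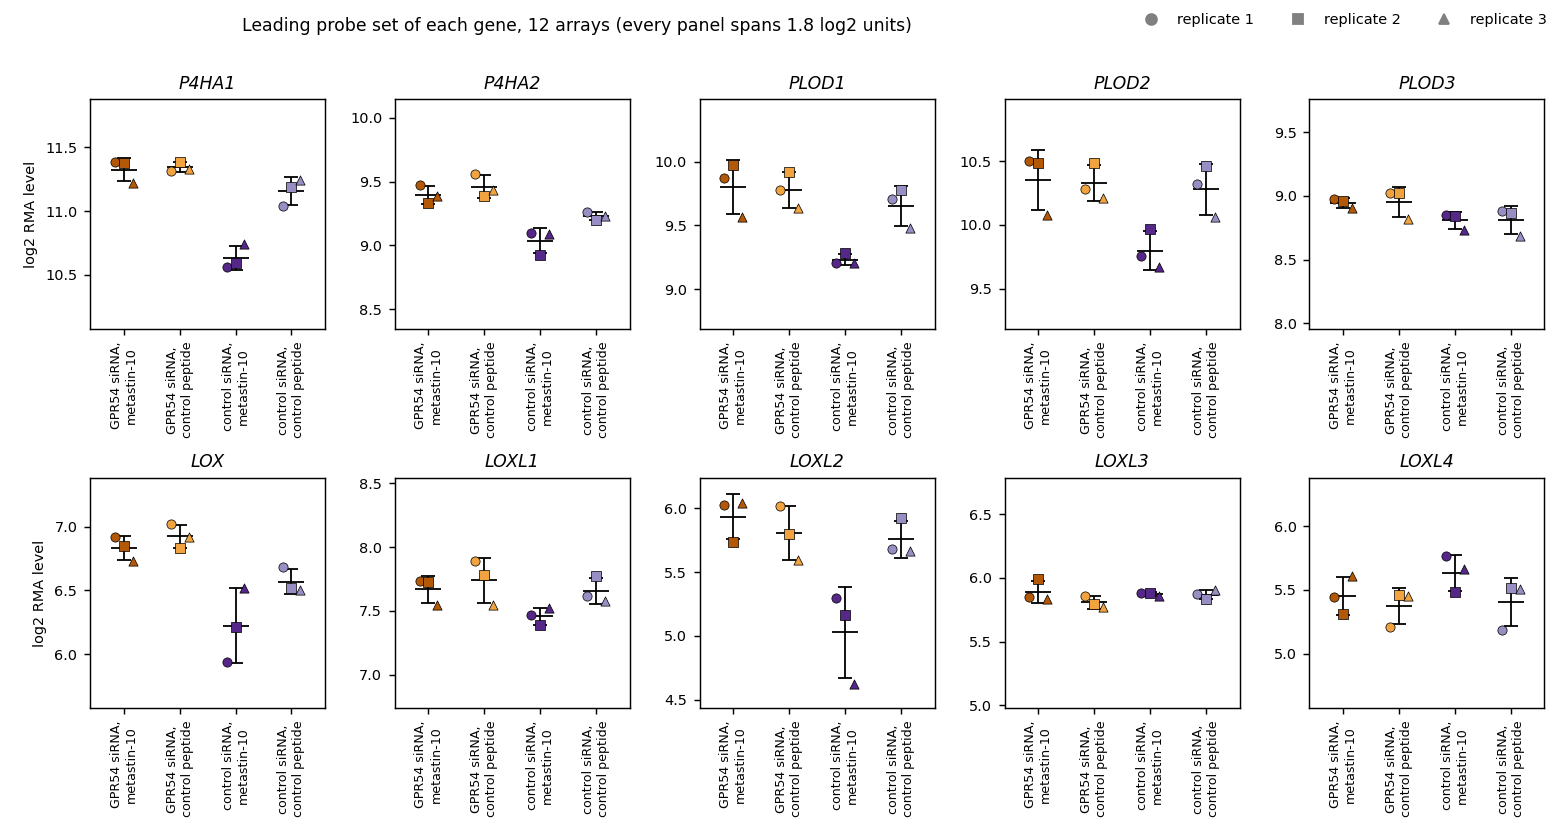
Log2 RMA level of the leading probe set of each member on each of the 12 arrays, with the group mean and SD (n = 3) as bars and a different symbol for each replicate number; every panel spans 1.8 log2 units. For P4HA1 the control siRNA arrays with metastin-10 lie at 10.56 to 10.74, below the other 9 arrays at 11.04 to 11.39, while the 4 groups of LOXL3 overlap.

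Among the prolyl 4-hydroxylases, P4HA1 (chromosome 10, 73007217 to 73096866 on GRCh38.p14) gave the clearest separation. It read 11.38, 11.37 and 11.22 in arrays labelled GPR54 siRNA with metastin-10, 11.31, 11.39 and 11.33 in those with control peptide, 10.56, 10.60 and 10.74 with control siRNA and metastin-10, and 11.04, 11.19 and 11.25 with control siRNA and control peptide. The 3 arrays with control siRNA and metastin-10 were the lowest of the 12, and those with control siRNA and control peptide lay below both groups labelled GPR54 siRNA apart from an overlap with 1 array at 11.22. The difference of metastin-10 from control peptide under control siRNA was -0.53 (SE 0.09, 95% interval -0.72 to -0.34, adjusted p = 0.02152). Between same-numbered arrays the differences were -0.47, -0.60 and -0.51. The call was lost without control siRNA arrays 1 or 2 of metastin-10 or 2 or 3 of control peptide. Over the arrays left out in turn the values were -0.59 to -0.48 and the adjusted p reached 0.1206. Without both metastin-10 arrays that stood apart, which leaves 1 array in that group, the value was -0.42. A fit with 1 array in a group cannot decide whether the call depends on the arrays left out.

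P4HA2 encodes the second alpha subunit of the same enzyme and differed less. Its leading probe set read 9.47, 9.33 and 9.39 in arrays labelled GPR54 siRNA with metastin-10, 9.56, 9.39 and 9.43 in those with control peptide, 9.10, 8.93 and 9.09 with control siRNA and metastin-10, and 9.26, 9.20 and 9.23 with control siRNA and control peptide. The control siRNA groups did not overlap each other or the groups labelled GPR54 siRNA, with metastin-10 lowest. The metastin-10 difference under control siRNA was -0.19 (95% interval -0.37 to -0.01, adjusted p = 0.4381), which did not pass.

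Of the lysyl hydroxylases, PLOD1 (chromosome 1, 11934717 to 11975537) and PLOD2 (chromosome 3, 146069440 to 146161184) lay lower together and PLOD3 gave a difference near 0. PLOD1 hydroxylates lysines of the helical part of collagen. It read 9.88, 9.97 and 9.56 in arrays labelled GPR54 siRNA with metastin-10, 9.78, 9.92 and 9.64 in those with control peptide, 9.21, 9.29 and 9.20 with control siRNA and metastin-10, and 9.71, 9.78 and 9.48 with control siRNA and control peptide. All metastin-10 arrays with control siRNA lay below the other 9, and the array numbered 3 was the lowest of each group. The metastin-10 difference under control siRNA was -0.42 (95% interval -0.68 to -0.16), not past the threshold without a block (adjusted p = 0.2047) and past it with the replicate number as a block (adjusted p = 0.0442).

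PLOD2 hydroxylates lysines of the end segments of collagen, which gives a more stable kind of cross-link. Its leading probe set read 10.50, 10.48 and 10.08 in arrays labelled GPR54 siRNA with metastin-10, 10.29, 10.49 and 10.21 in those with control peptide, 9.76, 9.97 and 9.67 with control siRNA and metastin-10, and 10.32, 10.46 and 10.06 with control siRNA and control peptide. The metastin-10 arrays with control siRNA were again the lowest, without overlap. The difference from control peptide was -0.48 (95% interval -0.78 to -0.18), with an adjusted p of 0.2159 without the block and 0.0294 with it.

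The second PLOD2 probe set read 9.78, 9.64 and 9.43 in arrays labelled GPR54 siRNA with metastin-10, 9.56, 9.50 and 9.38 in those with control peptide, 8.78, 8.85 and 8.96 with control siRNA and metastin-10, and 9.26, 9.28 and 9.30 with control siRNA and control peptide. Its groups were ordered as in the leading probe set, and its correlation with it over the 12 arrays was 0.83. The metastin-10 difference under control siRNA was -0.42 (adjusted p = 0.1099). PLOD3, which also transfers sugars to hydroxylysine, had levels from 8.69 to 9.03 over all arrays and a difference of -0.01 (95% interval -0.20 to 0.19).

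Among the lysyl oxidases none passed the threshold with metastin-10 under control siRNA, and the leading probe set of LOXL2 had the lowest unadjusted p, 0.000859. LOXL2 oxidises collagen IV among other substrates. It read 6.03, 5.74 and 6.05 in arrays labelled GPR54 siRNA with metastin-10, 6.02, 5.80 and 5.60 in those with control peptide, 5.30, 5.17 and 4.63 with control siRNA and metastin-10, and 5.68, 5.93 and 5.67 with control siRNA and control peptide. The metastin-10 arrays with control siRNA lay below the other 9, and array 3 lay well below arrays 1 and 2. The difference was -0.73 (95% interval -1.09 to -0.36, adjusted p = 0.1033). The other 3 probe sets of LOXL2 gave -0.05, -0.05 and -0.03, and their correlations with the leading one over 12 arrays were -0.08, 0.58 and -0.10, so the difference rests on 1 of 4 probe sets.

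LOX, the founding member of the family, varied widely within the group with control siRNA and metastin-10. Its leading probe set read 6.92, 6.85 and 6.73 in arrays labelled GPR54 siRNA with metastin-10, 7.02, 6.84 and 6.92 in those with control peptide, 5.94, 6.21 and 6.52 with control siRNA and metastin-10, and 6.68, 6.52 and 6.51 with control siRNA and control peptide. Array 3 of the metastin-10 group reached the control peptide arrays, so the control siRNA groups overlapped, while every array labelled GPR54 siRNA lay above every array with control siRNA. The metastin-10 difference under control siRNA was -0.34 (95% interval -0.62 to -0.07, adjusted p = 0.3596), and the other LOX probe sets gave -0.56 (adjusted p = 0.3103) and -0.11. It was -0.20 without array 1 of control siRNA with metastin-10. It was -0.05 without that array and array 2, which leaves 1 array in the group.

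LOXL1, which is needed for elastic fibre upkeep in mice, gave -0.20 (95% interval -0.42 to 0.02) and did not overlap between the control siRNA groups. LOXL3 lay between 5.77 and 5.99 on all 12 arrays and gave 0.0049 (95% interval -0.16 to 0.17). LOXL4 gave a positive difference of 0.23 (95% interval -0.03 to 0.49), and its second probe set also gave 0.23. Without array 1 of control siRNA with control peptide the leading probe set gave 0.12. Neither passed the threshold, and the control siRNA groups overlapped in both probe sets.

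**Figure D2:**
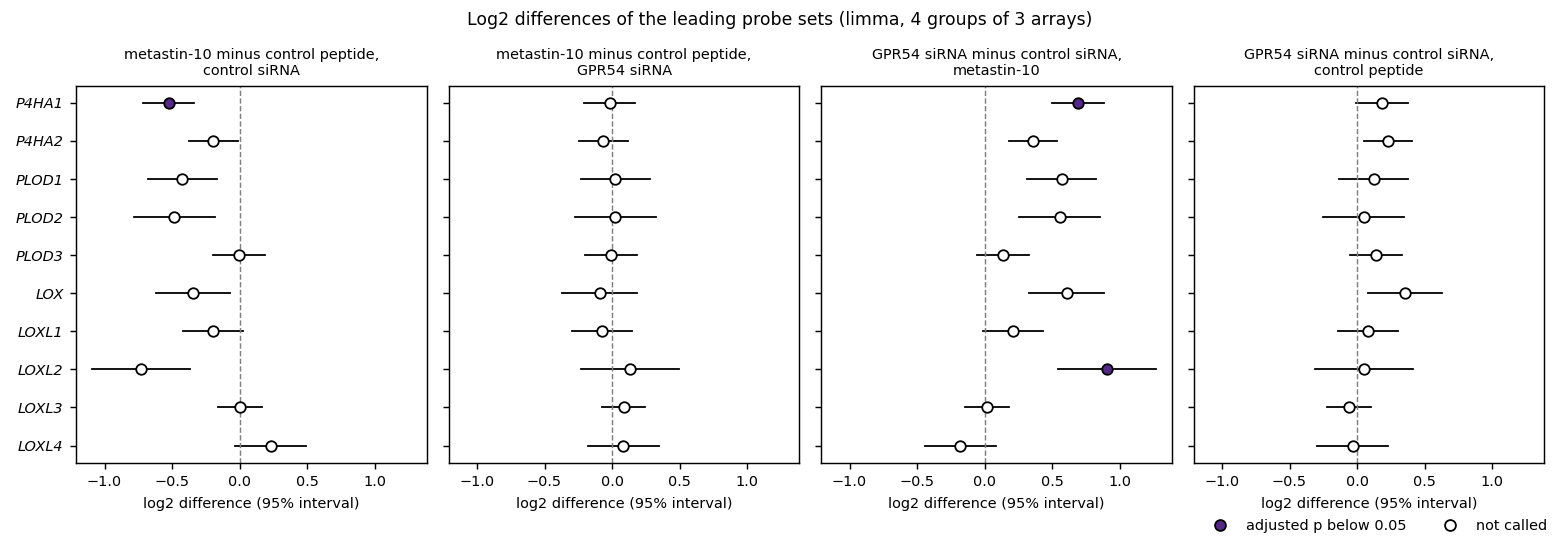
Log2 difference of each member's leading probe set in the 4 pairwise comparisons, with 95% intervals from limma; filled points passed an adjusted p of 0.05. P4HA1 at -0.53 is the filled point for metastin-10 under control siRNA, P4HA1 at 0.69 and LOXL2 at 0.91 are the filled points for GPR54 siRNA under metastin-10, and no point is filled in the other comparisons.

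In arrays labelled GPR54 siRNA, metastin-10 and control peptide were close for all members. The 10 differences ran from -0.09 for LOX to 0.13 for LOXL2, with a median of 0.01 against -0.01 over all genes. No member passed in limma and none had an unadjusted p below 0.05. The background is 0% of genes past the threshold. An unadjusted p below 0.05 was found for 357 of 19775 genes by their leading probe set and for 2.21% of all probe sets. P4HA1 gave -0.02 (95% interval -0.21 to 0.17), PLOD1 0.03 (95% interval -0.23 to 0.28) and PLOD2 0.03 (95% interval -0.28 to 0.33).

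Whether the metastin-10 difference itself depended on the siRNA was tested by the interaction, the difference with GPR54 siRNA minus that with control siRNA. It was 0.86 for LOXL2 (95% interval 0.34 to 1.37), 0.51 for P4HA1 (95% interval 0.24 to 0.78), 0.51 for PLOD2 (95% interval 0.08 to 0.93) and 0.45 for PLOD1 (95% interval 0.08 to 0.81). These 4 members had an unadjusted p below 0.05, and none passed after adjustment (limma, adjusted p = 0.4287, 0.3049, 0.7097 and 0.6822). Of all 19775 genes, 0.106% passed the threshold and 1242 had an unadjusted p below 0.05, as did 6.09% of all probe sets. For the other 6 members the interaction lay between -0.15 and 0.25. A different response under the 2 siRNAs was therefore not shown for any member at this number of arrays.

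Under control peptide, GPR54 siRNA against control siRNA gave positive differences for 8 members and negative ones for LOXL3 (-0.06) and LOXL4 (-0.03). No member passed in limma and 2, LOX and P4HA2, had an unadjusted p below 0.05. Of 19775 leading probe sets 0% passed and 553 had such a p, as did 4.25% of all probe sets. LOX was higher by 0.36 (95% interval 0.08 to 0.63, adjusted p = 0.9532), P4HA2 by 0.23 (95% interval 0.05 to 0.41, adjusted p = 0.9682) and P4HA1 by 0.19 (95% interval -0.0047 to 0.37, adjusted p = 0.9998). For these 3 members the groups did not overlap, where 6.34% of all genes lay higher without overlap. The median of the 10 members was 0.10 and that of all genes 0.02.

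Under metastin-10, GPR54 siRNA against control siRNA gave mostly positive differences, where metastin-10 under control siRNA gave negative ones, and the 2 comparisons share the 3 arrays with control siRNA and metastin-10. P4HA1 and LOXL2 rose, 2 of 10 members, against 1.04% of all genes past the threshold and 0.966% higher. P4HA1 rose by 0.69 (SE 0.09, 95% interval 0.50 to 0.88, adjusted p = 0.002884), a 1.62-fold difference, and passed whichever of the 12 arrays was left out, with values of 0.66 to 0.75. Without both control siRNA, metastin-10 arrays that stood apart, which leaves 1 array in that group, it was 0.58.

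LOXL2 rose by 0.91 (95% interval 0.54 to 1.27, adjusted p = 0.03129), a 1.87-fold difference in its leading probe set. Its other 3 probe sets gave 0.02, 0.25 and -0.11. The LOXL2 call was lost in 7 of the 12 fits that left out 1 array: without array 2 or 3 of control siRNA with metastin-10, array 1 of control siRNA with control peptide, array 2 of GPR54 siRNA with control peptide, or any array of GPR54 siRNA with metastin-10. The values of those 12 fits were 0.70 to 1.04 and the adjusted p 0.03455 to 0.1596.

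No other leading probe set of a member passed under metastin-10 in the fit without a block. More members passed with the replicate block, array weights, an intensity trend, dim probe sets left out or probe sets averaged. None passed when only the compared groups were fitted. PLOD1 was higher by 0.57 (95% interval 0.31 to 0.83, adjusted p = 0.05754), LOX by 0.61 (95% interval 0.33 to 0.89, adjusted p = 0.05957), P4HA2 by 0.36 (95% interval 0.18 to 0.54, adjusted p = 0.09726) and PLOD2 by 0.56 (95% interval 0.25 to 0.86, adjusted p = 0.1317). PLOD3 gave 0.14 (95% interval -0.05 to 0.33, adjusted p = 0.6493). The second PLOD2 probe set rose by 0.76 (95% interval 0.55 to 0.97, adjusted p = 0.003118) and passed whichever array was left out, so 3 of the 20 probe sets passed, where 0.527% of all probe sets were higher. Within the metastin-10 arrays, those labelled GPR54 siRNA all lay above those with control siRNA for 8 members, all but LOXL3 and LOXL4. Of all genes, 11.2% did so. The median of the 10 members was 0.46 and that of all genes 0.00074.

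**Figure D3:**
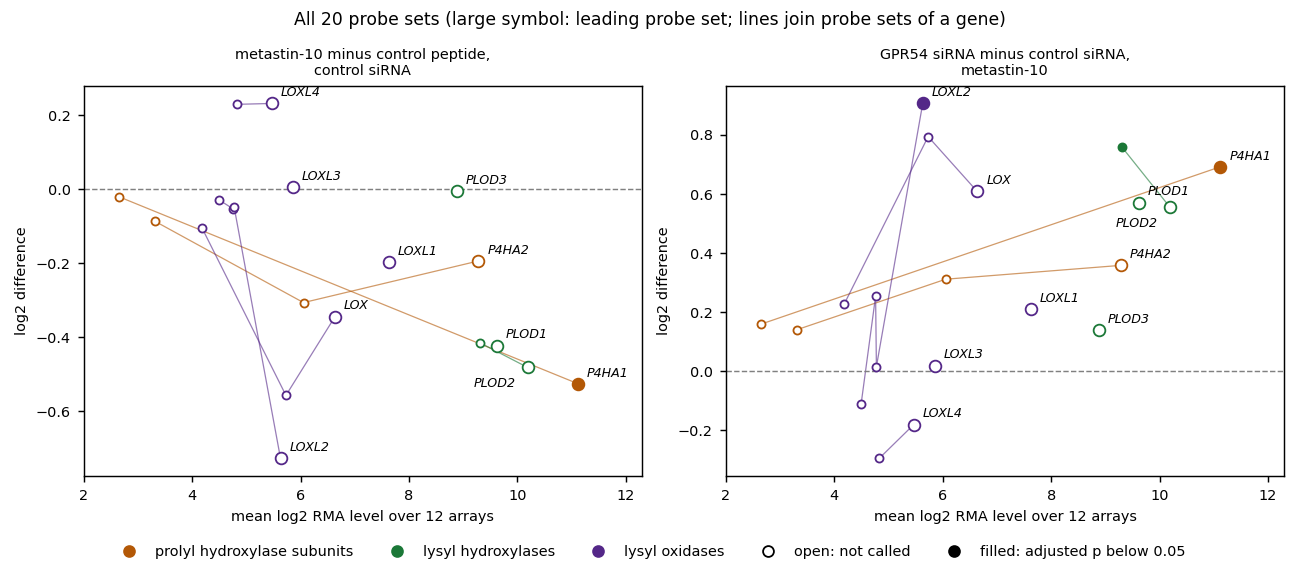
Log2 difference of all 20 probe sets against their mean log2 level over 12 arrays, for metastin-10 under control siRNA and for GPR54 siRNA under metastin-10; lines join the probe sets of a gene and filled symbols passed an adjusted p of 0.05. The dim P4HA1 probe set at a mean of 2.65 lies near 0 in the first panel (-0.02), and both PLOD2 probe sets lie at -0.48 and -0.42.

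Probe sets of a gene did not all agree. P4HA1's second probe set, with a mean level of 2.65 over 12 arrays, gave -0.02 with metastin-10 under control siRNA and a correlation with the leading one of -0.01. When the probe sets of a gene were averaged, P4HA1 gave -0.27 (adjusted p = 0.2027) in that comparison and LOXL2 gave 0.27 (adjusted p = 0.1893) for the siRNAs under metastin-10, so both calls were lost. The P4HA2 probe sets gave -0.19, -0.31 and -0.09, and under metastin-10 the siRNA difference was 0.36, 0.31 and 0.14. The LOX probe sets gave siRNA differences of 0.61, 0.79 and 0.23 under metastin-10, and those of LOXL4 gave -0.18 and -0.29. For P4HA1, P4HA2, PLOD2, LOX and LOXL4 all probe sets thus had the same sign within each of these comparisons, and for LOXL2 they did not under metastin-10.

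Across the 12 arrays the members varied together to different degrees, given here as a description over arrays that share the same 4 groups. PLOD1 and PLOD2 had the highest correlation, 0.97, and 0.93 after the group means were taken out. The array numbered 3 was the lowest of every group for both genes, and with the means of the replicate numbers taken out as well the correlation was 0.64. P4HA1 correlated with PLOD1 at 0.88 and with LOX at 0.88, but with PLOD1 at 0.23 once the group means were taken out and at 0.67 once the means of the replicate numbers were taken out as well. PLOD3 correlated with P4HA1 at 0.47. LOXL4 ran against the others, with -0.67 against PLOD1, and LOXL3 correlated with P4HA1 at -0.14.

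The genes most like each member over the 12 arrays were taken from 19765 named genes that are no member. They are the highest of that many correlations, over arrays that share groups and replicate numbers, so they are a description. Shared regulation was not tested. P4HA1 was most like ALDOC, a glycolytic aldolase, IDH2, a mitochondrial isocitrate dehydrogenase, and TMEM45A, each at a correlation of 0.98. ALDOC differed by -0.87, IDH2 by -0.36 and TMEM45A by -0.71 between metastin-10 and control peptide under control siRNA. PLOD1 was most like GBE1, the glycogen branching enzyme, RBP4 and EFHD1, each at 0.97. PLOD2 was most like the transcription factor gene ZIC2 at 0.99, then ANKRD9 and the translation factor gene EIF4B at 0.97. PLOD3 was most like HK1, a hexokinase, at 0.95, then PFKP, a phosphofructokinase, and THEM6 at 0.93. PLOD3 was lowest on the array numbered 3 of every group. HK1, PFKP and THEM6 differed by -0.07, -0.16 and -0.00035 with metastin-10 under control siRNA. P4HA2 was most like BCKDHA, SDR39U1 and CIMAP3, each at 0.96.

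For the lysyl oxidases, LOX was most like TMEM102, RARRES2 and C2orf49, each at 0.95. LOXL1 was most like CLIC6 and KLC3, both at 0.97, and APOLD1 at 0.95. LOXL2 was most like TNFAIP3, an inhibitor of NF-kappaB signalling, at 0.96, then RAB11B-AS1 and SYTL3 at 0.95. LOXL3 reached only 0.85 with CACNA1G-AS1, 0.79 with MROH2B and 0.76 with PRDM7, and LOXL4 0.91 with BPIFA2, 0.90 with DUSP15 and 0.90 with VAT1L.

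The 5 members named above as reported HIF-1 targets, LOX, P4HA1, P4HA2, PLOD1 and PLOD2, had a median of -0.42 with metastin-10 under control siRNA. Of these, 5 of 5 had an unadjusted p below 0.05 in limma, as did 2354 of 19775 genes and 10.6% of all probe sets. The other 5 had a median of -0.01, and 1 of 5, LOXL2, had such a p. With GPR54 siRNA under metastin-10 the medians were 0.57 and 0.14. The split was made with these results known, so it is a description. The list of targets need not be complete, so the other 5 are not a set of known non-targets. The window of P4HA2, which held neither motif, lies inside the annotated span of the gene and so is not upstream of its outermost start, and the same holds for LOXL3.

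Genes that work beside the members were described from lists by role. The oxygen-sensing hydroxylases belong to the same iron and 2-oxoglutarate enzyme class and mark HIF for breakdown or block its activity; in the list of 5, EGLN3 fell and 4 did not pass, with a median of -0.18. EGLN3 read 8.32, 8.40 and 8.33 in arrays labelled GPR54 siRNA with metastin-10, 8.26, 8.27 and 8.30 in those with control peptide, 7.02, 7.35 and 7.60 with control siRNA and metastin-10, and 7.86, 8.05 and 8.10 with control siRNA and control peptide. The control siRNA, metastin-10 arrays were the lowest 3, and every array labelled GPR54 siRNA was above every control siRNA array.

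EGLN3 fell by 0.67 with metastin-10 under control siRNA (adjusted p = 0.03724), and its second probe set by 0.51 (adjusted p = 0.03829). The first of these calls was lost in 10 of 12 fits that left out 1 array, all but those without array 3 of either metastin-10 group, with values of -0.81 to -0.52. With GPR54 siRNA under metastin-10 EGLN3 rose by 1.02 (adjusted p = 0.002215) and passed whichever array was left out.

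Of the 14 collagen and elastin substrate genes, COL5A2, a chain of the fibril-starting collagen V, fell and 13 did not pass, with a median of 0.0023. COL5A2 read 6.79, 6.83 and 6.27 in arrays labelled GPR54 siRNA with metastin-10, 6.99, 6.77 and 6.64 in those with control peptide, 5.97, 5.94 and 5.74 with control siRNA and metastin-10, and 6.90, 6.86 and 6.52 with control siRNA and control peptide. The control siRNA, metastin-10 arrays lay below the other 9. The metastin-10 difference was -0.88 (95% interval -1.22 to -0.54, adjusted p = 0.03159) and that of the second probe set -0.79 (adjusted p = 0.0793). The call was lost in 6 of 12 fits that left out 1 array, those without any array of control siRNA with metastin-10, arrays 1 or 2 of control siRNA with control peptide, or array 2 of GPR54 siRNA with control peptide, and the values of all 12 lay at or below -0.81. With GPR54 siRNA under metastin-10 COL5A2 was higher by 0.75 (adjusted p = 0.06105), and no substrate gene passed.

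No gene passed in the other lists in either of these comparisons. Of the 14 measured folding and modification partners, 0 passed in limma and 1 had an unadjusted p below 0.05 with metastin-10 under control siRNA. That was P3H2, a prolyl 3-hydroxylase, with a log2 difference of 0.38 (adjusted p = 0.1751). P4HB, named for its role as the partner subunit of P4HA1 and P4HA2, gave -0.0029 (95% interval -0.29 to 0.28). Of 13 genes of procollagen processing and lysyl oxidase activation, 0 passed and 3 had an unadjusted p below 0.05. The lowest p was that of TLL2, a relative of the protease BMP1, with a log2 difference of 0.32 (adjusted p = 0.2216). Of 6 copper and ascorbate supply genes, 0 passed and none had an unadjusted p below 0.05.

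**Figure D4:**
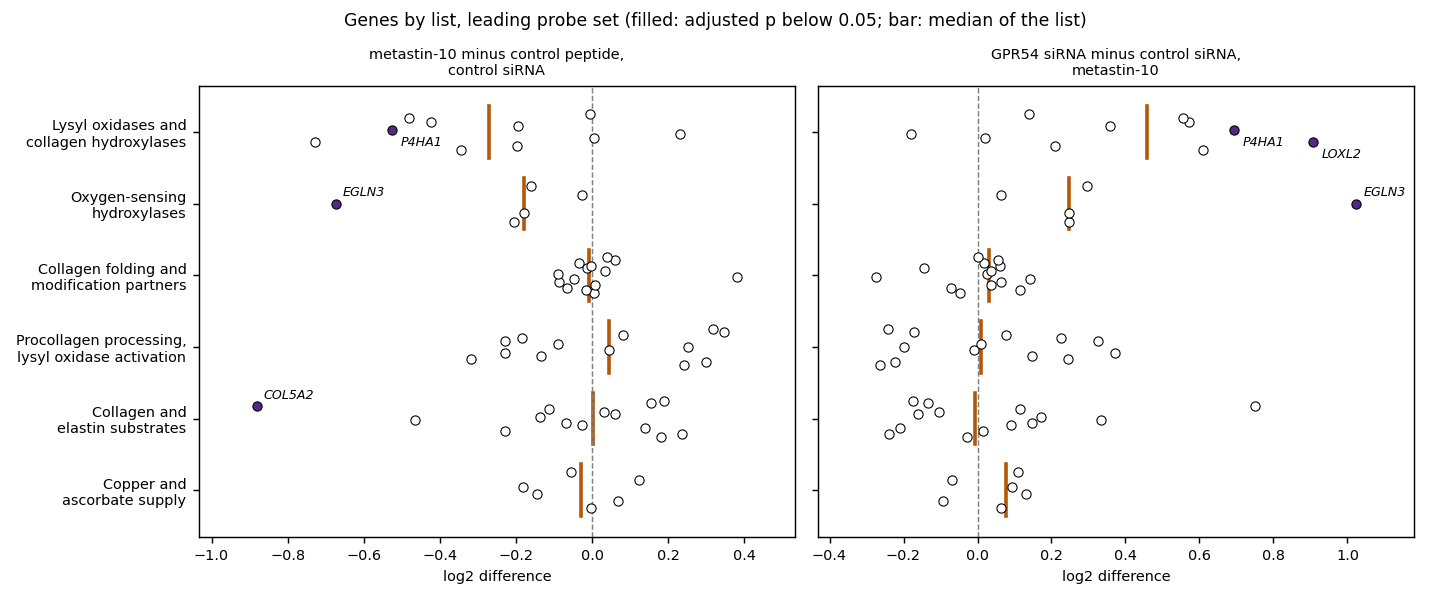
Log2 difference of the leading probe set of each gene in the member list and the 5 related lists, with the list median as a bar; filled points passed an adjusted p of 0.05. With metastin-10 under control siRNA P4HA1, EGLN3 and COL5A2 are filled at -0.53, -0.67 and -0.88, and with GPR54 siRNA under metastin-10 P4HA1, LOXL2 and EGLN3 are filled at 0.69, 0.91 and 1.02.

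Of the epithelial markers, KRT19, a keratin, also fell with metastin-10 under control siRNA, by 0.48 (adjusted p = 0.009005). All 7 of these markers had a negative difference, with a median of -0.20. KRT19 did not pass without array 1 of metastin-10 or array 2 of control peptide, at values between -0.49 and -0.47, and averaged over its probe sets it gave -0.15. Of the 7 stromal fibroblast markers, 0 passed in limma, 2 had an unadjusted p below 0.05 and 6 had a positive difference. With GPR54 siRNA under metastin-10, 2 of the 7 epithelial markers rose, KRT19 by 0.59 (adjusted p = 0.001655) and MUC1, a mucin, by 0.57 (adjusted p = 0.03074), with a median of 0.20. The KRT19 call held whichever array was left out, and that of MUC1 was lost in 7 of 12 such fits, those without any array of control siRNA with metastin-10, arrays 1 or 2 of control siRNA with control peptide, or arrays 1 or 2 of GPR54 siRNA with metastin-10. Of the stromal fibroblast markers 0 passed there, 1 had an unadjusted p below 0.05 and 6 had a negative difference. The part of these markers in the P4HA1, PLOD1, PLOD2 and LOXL2 results was not tested.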

How the data were processed

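Expression was measured in 12 Ishikawa cell samples on Affymetrix U133 Plus 2.0 arrays. The authors deposited log2 values made with RMA, per the labels. That method forces all arrays to the same distribution, so a shift shared by most genes would be lost, and takes 1 robust value from the probes of a set. No version of it is given in the sources used here. Of 54675 probe sets, 62 controls were left out, and symbols came from the platform annotation.

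Group means were fitted to all 12 arrays with limma 3.58.1 in R 4.3.3 (lmFit and eBayes, 8 residual degrees of freedom, two-sided, Benjamini-Hochberg over 54613 probe sets, threshold 0.05). With 3 arrays a group, the median 95% interval reached 0.25 either side of a metastin-10 difference; depth does not apply to arrays, and their number limits the precision. The fit was tested on simulated data for metastin-10 under control siRNA over 54613 probe sets. It recovered 87% of log2 changes of 1 and 36% of changes of 0.5, and 4 of 127 calls were false. The simulated noise was independent between arrays and probe sets. The deviations shared between arrays of the data, given next, were not simulated, so these shares need not hold for the data.

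Same-numbered arrays deviated together in 3 comparisons, with correlations of 0.26, 0.17 and 0.44 for metastin-10 under control siRNA, 0.37, 0.26 and 0.52 for metastin-10 under GPR54 siRNA, and 0.11, 0.21 and 0.54 for the siRNAs under control peptide. The numbers were therefore taken to pair arrays there, which comes from the data and not from the labels. For the siRNAs under metastin-10 they were -0.15, 0.26 and 0.07. These values do not show that the arrays are unpaired, since the arrays numbered 3 stood apart in their controls in every group.

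All members were named, with the receptor gene, up to 4 genes past the threshold or else the lowest p of each related list, and the 3 genes most like each member by Pearson's r. The members, lists and tests were chosen with earlier results of these data known. COLGALT2, 1 of 15 folding partners listed, had no leading probe set and was not analysed here. Alternatives were the replicate block, array weights, an intensity trend, fitting only 2 groups, a filter on dim probe sets, averaging a gene's probe sets, and leaving out arrays.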

Additional observations from a re-analysis of the deposited data

Results flagged for a closer look

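KISS1R, the gene of the targeted receptor, differed in its response to metastin-10 between the siRNAs: the interaction was 0.89 on the log2 scale (95% interval 0.59 to 1.19, limma, adjusted p = 0.04996). Its metastin-10 difference was -0.88 under control siRNA, where all 3 metastin-10 arrays lay below all 3 control peptide arrays. The interaction passed the threshold in 1 of 12 fits that left out 1 array, the one without array 3 of GPR54 siRNA with metastin-10, with adjusted p of 0.03688 to 0.198 over the 12, so every other array decided the call.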

How the results depend on the processing

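The limit is 3 arrays a group. Under metastin-10 with control siRNA the 1 member called (P4HA1) became 3 with the replicate block (P4HA1, PLOD1 and PLOD2). It became 0 when only 2 groups were fitted, when probe sets of a gene were averaged, and with only arrays numbered 1 and 2. Leaving out 1 array gave 0 to 1. Leaving out both control siRNA, metastin-10 arrays that stood apart was an alternative chosen after seeing the data. That fit leaves 1 array in the group, so its calls are not counted here. The 2 members called for GPR54 siRNA under metastin-10 became 5 with the replicate block, 6 with array weights and 6 with an intensity trend. They became 5 above the median level, 4 with probe sets averaged and 0 with only 2 groups. Leaving out 1 array gave 1 to 3. Deviations of same-numbered arrays correlated at -0.15, 0.26 and 0.07 in this comparison, which by themselves do not show a pairing. The comparisons in which the numbers were taken to pair arrays link these groups through the others. If the pairing holds there, it carries over to this comparison, and the block then applies here too. For the interaction, 0 calls became 1 (P4HA1) with array weights. The cause of these changes was not tested, beyond the fewer samples fitted where groups or arrays were left out. The replicate block changed no other call of a member where the numbers were taken to pair arrays.

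Over the whole table, 234 probe sets were called for metastin-10 under control siRNA. The count was 422 with the replicate block, 495 with weights, 368 with the trend and 77 with 2 groups. With probe sets averaged 153 genes were called, and with 1 array left out 71 to 263 probe sets. For GPR54 siRNA under metastin-10 the count was 316, against 504, 2016, 480 and 57 with the block, weights, trend and 2 groups. It was 597 above the median level and 129 to 332 with 1 array left out. For the siRNAs under control peptide 29 became 0 to 130, and for the interaction 28 became 0 to 250, over all alternatives. For metastin-10 under GPR54 siRNA the count was 0 in every alternative run.

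Some signs turned. For metastin-10 under GPR54 siRNA, array weights gave -0.00270 for LOXL2, -0.0590 for LOXL4 and 0.00200 for P4HA1, averaged probe sets gave 0.0847 for P4HA1, and arrays 1 and 2 alone gave -0.0300 for LOXL2 and 0.0279 for P4HA1. For the siRNAs under control peptide, LOXL4 gave 0.0235 with weights, LOXL2 -0.0421 with averaged probe sets and PLOD2 -0.0038 with arrays 1 and 2. Without both arrays that stood apart, 1 array of control siRNA with metastin-10 is left. LOXL3 then gave -0.0112 with metastin-10 under control siRNA. The interaction was then -0.0434 for LOX, against 0.25 with all arrays, and 0.0729 for PLOD3. Leaving out 1 array in turn, the ranges that crossed 0 were as follows. With metastin-10 under control siRNA they were -0.0123 to 0.0213 for LOXL3 and -0.0689 to 0.0331 for PLOD3. With metastin-10 under GPR54 siRNA they were -0.167 to 0.00372 for LOXL1, -0.0470 to 0.0342 for P4HA1, -0.0589 to 0.145 for PLOD1, -0.0464 to 0.162 for PLOD2 and -0.0776 to 0.0258 for PLOD3. For the siRNAs under control peptide they were -0.0589 to 0.154 for LOXL2, -0.141 to 0.0490 for LOXL4 and -0.0609 to 0.138 for PLOD2. Under metastin-10 the range was -0.0303 to 0.0492 for LOXL3, and for the interaction -0.0723 to 0.0596 for PLOD3.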
